A study of Homo sapiens with 8 samples.

Results

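The HOX cluster genes were taken as every gene whose symbol is HOX, a cluster letter from A to D and a number, which gave 37 of the 19770 genes in the deposited data. Of these, 10 belonged to the *HOXA* cluster, 9 to *HOXB*, 9 to *HOXC* and 9 to *HOXD*. They were measured by RNA sequencing in HEK293T cells, an established human line derived from embryonic kidney, at 72 h after transient transfection. There were 4 groups of 2 libraries each. The control received dCas9 + MCP-mCherry, and CRISPR-DREAM received dCas9 + MCP-MSN, where MCP is a coat protein that binds MS2 loops of the gRNA and MSN is an activator assembled from parts of human transcription factors. The SAM system received dCas9-VP64 + MCP-p65-HSF1, and the dCas9-VPR group received the VPR activator fused directly to dCas9. By the study's transfection methods, the control, CRISPR-DREAM and SAM groups received 187.5 ng each of dCas9 and MCP plasmid. The dCas9-VPR group received 375 ng of dCas9 plasmid and 0 ng of MCP plasmid, and all groups 125 ng of gRNA plasmid. Comparisons with dCas9-VPR therefore differ in plasmid dose as well as in activator. All groups, the control included, carried pooled gRNAs against the fetal globin genes *HBG1* and *HBG2*, with MS2 loops in every group but dCas9-VPR, so no gRNA was designed to a HOX gene. The study describes the experiment as a test of specificity, and the HOX genes are read here as genes outside the target.

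HOX genes encode homeodomain transcription factors that give cells a position along the head to tail axis and along the limbs. Genes of a cluster lie in the order in which they act, so that 3′ genes with low numbers pattern anterior tissue and 5′ genes with high numbers pattern posterior tissue, and genes with the same number in different clusters are paralogs. Cells keep a particular set of HOX genes on, held by Trithorax (MLL) proteins and opposed by Polycomb proteins, and the HOX proteins bind DNA together with PBX, MEIS and PKNOX partners. In the build used by the files (hg38), *HOXA* lies on chromosome 7 (27092993 to 27200091, minus strand), *HOXB* on chromosome 17 (48540894 to 48728750, minus strand), *HOXC* on chromosome 12 (53938831 to 54056030, plus strand) and *HOXD* on chromosome 2 (176092721 to 176190907, plus strand).

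The values are CPM, read counts scaled so that each library has a common total. From the steps between low values, 1 read was worth 0.0284 to 0.0352 CPM depending on the library, and 3 reads 0.0853 to 0.106 CPM, limits that cover counting error only. *HBG2*, one of the gRNA targets, was at 0.837 to 1.29 CPM in the control, and it was at 2187 and 2874 CPM (CRISPR-DREAM), 707 and 860 CPM (SAM) and 218 and 201 CPM (dCas9-VPR). Listed markers of HEK293 cells were present, with all 10 tested and a summed level of 578 to 767 CPM, of which *VIM* made up 267 to 439.7 CPM, whereas the 6 of 10 markers of blood, endothelial and fibroblast cells found in the files summed to 6.58 to 14.4 CPM. Nothing in the labels says that the 2 libraries of a group came from separate cultures, so the p-values below measure the spread between these libraries, which may be technical. The log2 difference between replicates had an SD of 0.189 to 0.232 over the genes tested. No sorting of transfected cells is described, so each library holds all cells of its transfection.

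HEK293T cells transcribed all 4 clusters, and the highest levels lay toward the 5′, posterior ends. All 37 genes were above 0 in every library, 13 were above 10 CPM in every library, and 34 reached 1 CPM in at least 2 libraries, which was the filter for testing. The 3 genes below the filter were *HOXC5* (0.245 to 0.768 CPM), *HOXD4* (0.0351 to 0.554 CPM) and *HOXD12* (0.191 to 0.578 CPM). To compare genes, CPM was divided by the length of each gene's merged exons, between 1136 and 7425 bases. On that scale (CPM per kb of exon, mean of 8 libraries) the order began with *HOXB9* at 44.9, *HOXD13* at 36.2, *HOXA10* at 17.2 and *HOXB7* at 14.6. *HOXB9*, a gene of the thoracic skeleton, lay above *HOXD13*, a gene of the digits and genital tract, in 8 of 8 libraries. *HOXA10* lay above *HOXB7* in 7 of 8. The next 4 genes could not be ordered, since *HOXB13* (9.81), *HOXA11* (9.71), *HOXA9* (9.35) and *HOXA5* (9.12) each exceeded the next in only 5, 5 and 4 of the 8 libraries. The low end was *HOXD12* at 0.123, *HOXD4* at 0.215, *HOXC5* at 0.264 and *HOXD3* at 0.462 CPM per kb.

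**Figure D1:**
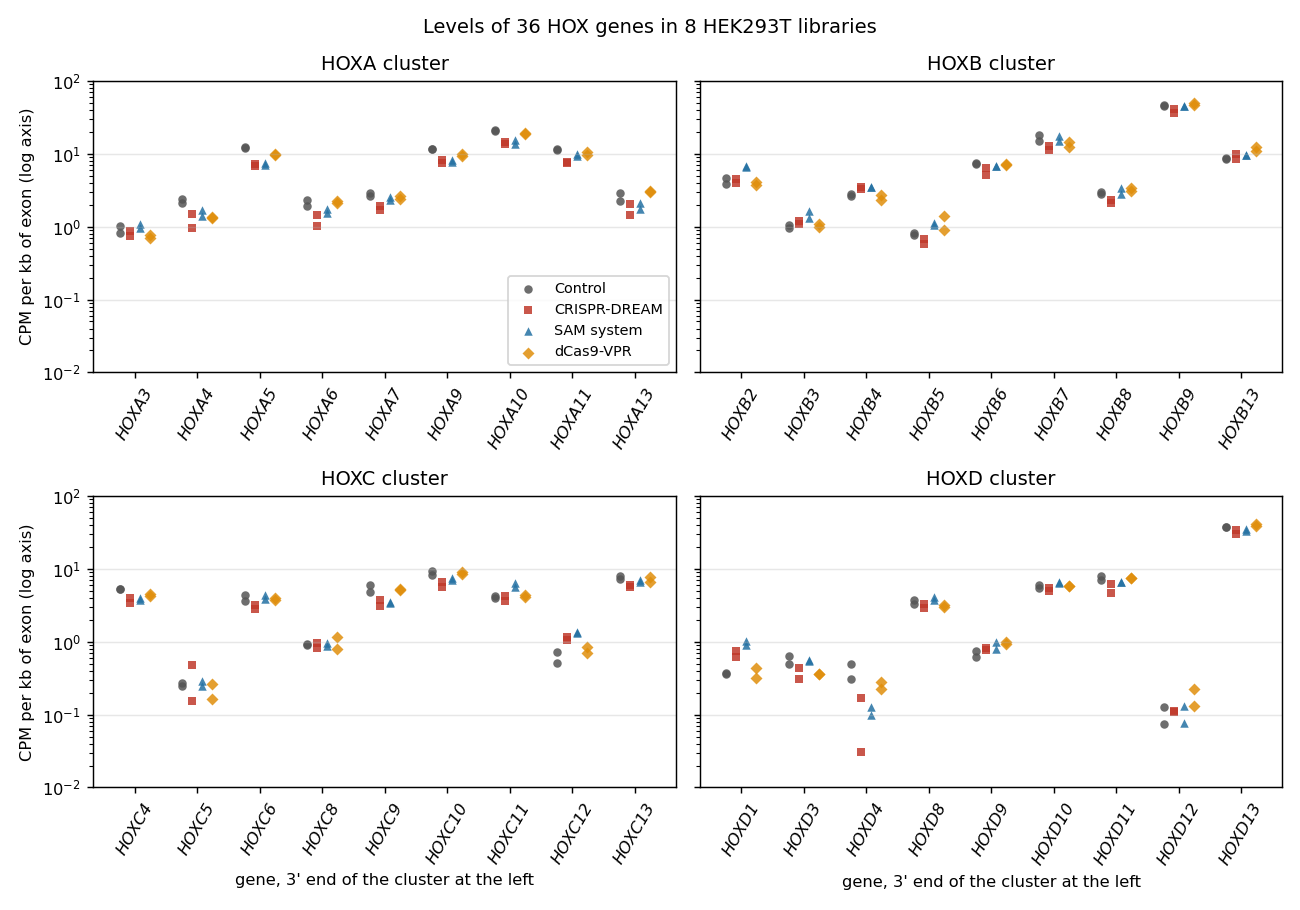
Levels of 36 HOX genes in each of the 8 libraries, as CPM per kb of exon on a log axis, with 1 panel per cluster and genes in order of paralog number from the 3′ end at the left. Each point is 1 library, coloured by group; *HOXB9* (mean 44.9) and *HOXD13* (mean 36.2) stand highest, and the points of *HOXD4* and *HOXD12* lie lowest.

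Genes with numbers from 9 to 13 held 68.6% to 73.8% of the summed HOX CPM per kb in every library, although they were 16 of the 37 genes. This share was 89.2% to 93.2% within *HOXD*, 70.8% to 73.6% within *HOXC*, 64.0% to 68.7% within *HOXA* and 57.2% to 65.3% within *HOXB*. The 6 genes numbered 1 to 3 held 3.61% to 6.30%. The rise with number was uneven. Across genes within a cluster, the Spearman coefficient between number and mean CPM per kb was 0.50 in *HOXA* (10 genes), 0.57 in *HOXB*, 0.52 in *HOXC* and 0.45 in *HOXD* (9 genes each), given as a description because neighbouring genes are not independent and all come from the same 8 libraries.

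Paralogs with the same number differed widely in level. In group 9, *HOXB9* was at 44.9 CPM per kb and *HOXD9* at 0.840. In group 13, *HOXD13* was at 36.2, *HOXB13* at 9.81, *HOXC13* at 6.89 and *HOXA13* at 2.32. Group 11, whose members are required for the metanephric kidney, was more even, with *HOXA11* at 9.71, *HOXD11* at 6.76 and *HOXC11* at 4.56 CPM per kb. Group 12 was low throughout, with *HOXC12* at 0.956 and *HOXD12* at 0.123. Dividing by the longest transcript in place of merged exons kept 11 of the 12 genes that were the 3 highest of their cluster, and the order of all 37 genes had a Spearman coefficient of 0.992 between the 2 measures.

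Assignment of reads is a limit for some members. In Gencode 44, 16 of the 37 genes share exon bases with a gene on the same strand and 20 with a gene on the opposite strand. *HOXC5* shares 67.3% and *HOXA4* 31.3% of its exon bases with a noncoding gene on the same strand. Antisense transcripts cover 62.5% of *HOXA7* and 39.3% of *HOXA6* (*HOXA-AS3*) and 27.2% of *HOXA11* (*HOXA11-AS*). Genes on the opposite strand together cover 60.1% of *HOXD1*. The study's methods name a stranded library kit, but the strand setting of the counting is not given in the sources used here. Whether reads of these genes were kept apart from those of their antisense partners is therefore not known. *HOXD10* and *HOXD11* also share 452 exon bases, *HOXC4* and *HOXC6* 484, and *HOXB3* and *HOXB6* 433.

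The stretches before the transcription start of 4 members are shown because these genes frame the comparisons that follow. *HOXA11* and *HOXA13* belong to the cluster that was lower with the activators, *HOXD1* was one of the genes higher with CRISPR-DREAM and the SAM system, and *HOXD13* was the highest gene of its cluster. Each line gives the 250 bases before the RefSeq start (GRCh38.p14), 5′ to 3′ on the gene's own strand, with the TATA box core (TATAAA), the CCAAT box and the GC box (GGGCGG) in capitals on either strand. On the opposite strand the first reads TTTATA, the next ATTGG and the last CCGCCC. The positions are chr7:27185233-27185482 (minus strand) for *HOXA11*, chr7:27200092-27200341 (minus strand) for *HOXA13*, chr2:176188418-176188667 (plus strand) for *HOXD1* and chr2:176092471-176092720 (plus strand) for *HOXD13*.
HOXA11: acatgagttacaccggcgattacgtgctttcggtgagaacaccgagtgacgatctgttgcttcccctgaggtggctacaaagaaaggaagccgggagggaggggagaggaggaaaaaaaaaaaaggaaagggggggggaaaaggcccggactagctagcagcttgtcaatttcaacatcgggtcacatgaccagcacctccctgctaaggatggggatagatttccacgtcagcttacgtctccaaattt
HOXA13: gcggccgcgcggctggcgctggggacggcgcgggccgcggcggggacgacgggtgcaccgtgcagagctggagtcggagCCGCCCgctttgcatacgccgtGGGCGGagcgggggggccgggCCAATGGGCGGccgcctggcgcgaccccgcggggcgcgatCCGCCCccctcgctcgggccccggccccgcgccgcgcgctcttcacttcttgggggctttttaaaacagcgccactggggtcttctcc
HOXD1: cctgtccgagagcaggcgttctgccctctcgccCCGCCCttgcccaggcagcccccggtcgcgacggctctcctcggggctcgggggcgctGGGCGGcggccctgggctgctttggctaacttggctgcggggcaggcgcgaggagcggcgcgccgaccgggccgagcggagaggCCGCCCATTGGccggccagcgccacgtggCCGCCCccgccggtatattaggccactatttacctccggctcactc
HOXD13: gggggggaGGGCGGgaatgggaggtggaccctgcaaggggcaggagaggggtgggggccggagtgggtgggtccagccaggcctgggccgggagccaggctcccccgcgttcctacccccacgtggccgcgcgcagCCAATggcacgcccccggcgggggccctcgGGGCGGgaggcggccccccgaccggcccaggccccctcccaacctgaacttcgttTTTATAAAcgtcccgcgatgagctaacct

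*HOXA11* has none of the searched motifs here, *HOXA13* and *HOXD1* have CCAAT and GGGCGG next to each other, and *HOXD13* has all of them, with TATAAA beginning 27 bases before the start and overlapping its own reverse match. RefSeq windows of 300 bases (250 before to 50 after the start) were found for 18 of the 37 genes, with *HOXC4* and *HOXC5* sharing 1 window and no *HOXB* gene matched. The shared window, which holds CCAAT, counts for both genes, while repeats among the windows of all genes were dropped. Of 25 HOX windows, each gene kept the 1 whose start was nearest to its 5′ end. The set of all genes kept every distinct window, so the shares and medians below rest on unlike selections. Starts lay up to 20695 bases (*HOXD3*) from the 5′ end of the gene. CCAAT, the letters bound by NF-Y, occurred on either strand in 15 of these 18 (83.3%), beside 34.6% of 34943 promoter windows of all genes. TATAAA occurred in 4 (22.2% beside 11.6%), the Sp1-type GC box GGGCGG in 10 (55.6% beside 44.9%) and TGATNNAT, a form of the HOX-PBX site, in 1 (5.56% beside 7.42%). The median number of CpG dinucleotides per window was 23.5 for these genes and 14 for all windows. A match of letters describes the window and does not show binding.

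With CRISPR-DREAM, most HOX genes were lower than in the control, and the *HOXA* cluster moved nearly as a whole. The summed level of the *HOXA* cluster was 205 ± 4.94 CPM in the control (SD, n = 2) and 136 ± 3.53 CPM with CRISPR-DREAM, 33.9% below the control. The sums were 12.3% below the control for *HOXB* (195 ± 1.98 against 223 ± 0.398 CPM), 21.8% below for *HOXC* (73.9 ± 0.215 against 94.5 ± 4.47 CPM) and 15.4% below for *HOXD* (115 ± 3.01 against 136 ± 1.54 CPM). Bulk CPM values cannot tell fewer cells with a transcript from less transcript per cell.

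**Figure D2:**
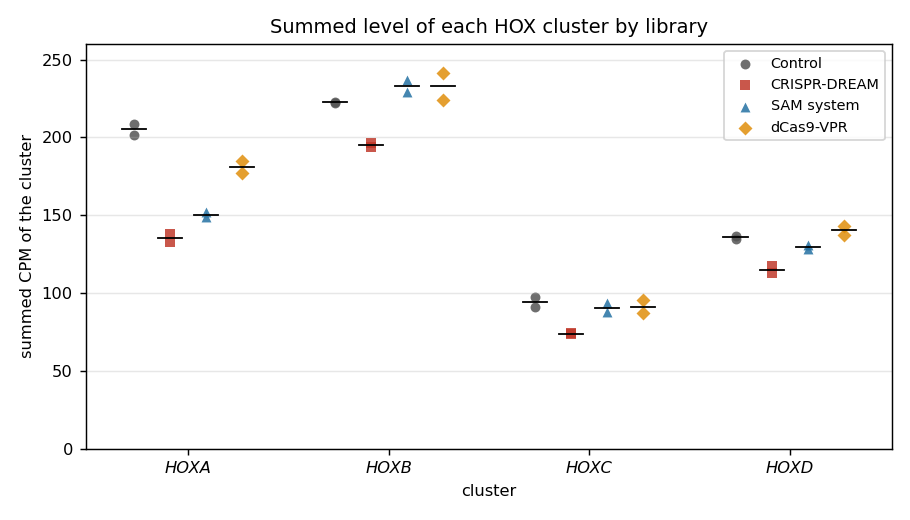
Summed CPM of each HOX cluster (y axis, from 0) in each library, with 1 point per library and a line at the group mean (n = 2). The *HOXA* means are 205 CPM for the control, 136 CPM for CRISPR-DREAM, 150 CPM for SAM and 181 CPM for dCas9-VPR.

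Gene by gene, 19 of the 34 tested HOX genes fell relative to the control at an adjusted p below 0.05 with no fold limit, where 9.25% of all 15122 genes tested fell. These were 9 of 10 in *HOXA*, 3 of 9 in *HOXB*, 5 of 8 in *HOXC* and 2 of 7 in *HOXD*. Only 2 rose (*HOXC12* and *HOXD1*), where 18.8% of all genes rose. *HOXD1* reached 1 CPM only in the CRISPR-DREAM and SAM libraries, so it entered the test through groups where it was high. The changes were small. At the study's threshold, a fold change above 2 with an adjusted p below 0.05, limma called 0 HOX genes and 2.55% of all genes. An unadjusted p below 0.05 was found for 23 HOX genes. The share of all genes at that limit was not computed. This count and those given below for other comparisons are therefore not read as a result about HOX genes. The median log2 fold change was -0.37 over the 34 HOX genes and 0.06 over all genes tested. With a library left out the count of 19 became 11 without control replicate 1, 9 without control replicate 2 and 12 without CRISPR-DREAM replicate 1. The 6 genes that fell in each of these fits were *HOXA5*, *HOXA7*, *HOXA9*, *HOXA10*, *HOXA11* and *HOXC4*. The 2 genes that rose became 0 without control replicate 2, and 1 without control replicate 1, without either CRISPR-DREAM library or without either SAM library. Cell markers moved with this comparison as well, with 5 of 10 HEK293 markers higher and 1 lower, and 1 of 5 tested markers of other cell types higher and 1 lower. The higher one, *PECAM1*, passed the filter only through the SAM libraries. The part of these markers in the HOX values was not tested.

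The highest genes of the *HOXA* cluster were among those that fell. *HOXA10*, a gene of the reproductive tract and of blood progenitors, was at 79.0 and 77.0 CPM for the control, 50.3 and 53.6 CPM under CRISPR-DREAM, 56.7 and 51.3 CPM under SAM and 70.0 and 72.8 CPM under dCas9-VPR. Both CRISPR-DREAM libraries lay below both control libraries, and the log2 fold change was -0.58 (standard error, SE, 0.07; limma adjusted p = 0.000226). *HOXA9*, a regulator of blood stem cells that is active in leukaemia, was at 35.9 and 35.9 CPM for the control, 22.9 and 25.2 CPM under CRISPR-DREAM, 25.3 and 23.1 CPM under SAM and 28.6 and 30.03 CPM under dCas9-VPR. Its log2 fold change with CRISPR-DREAM was -0.57 (SE 0.08, limma adjusted p = 0.000743). *HOXA11*, of the kidney and forearm, was at 31.1 and 30.1 CPM for the control, 20.3 and 21.0 CPM under CRISPR-DREAM, 25.2 and 26.5 CPM under SAM and 25.4 and 27.9 CPM under dCas9-VPR. It fell by 0.56 on the log2 scale with CRISPR-DREAM (SE 0.08, limma adjusted p = 0.000697), and no library of that group reached a control library.

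*HOXA5*, *HOXA4*, *HOXA3*, *HOXC9*, *HOXC12* and *HOXB3* were outside the rule for genes given by library and were chosen after their values were seen. *HOXA5*, a gene of lung and neck patterning, was at 21.5 and 20.8 CPM for the control, 11.6 and 12.6 CPM under CRISPR-DREAM, 12.1 and 12.96 CPM under SAM and 16.7 and 17.2 CPM under dCas9-VPR. With CRISPR-DREAM it fell by 0.78 on the log2 scale (SE 0.09, limma adjusted p = 0.000204). *HOXA4*, which shares 31.3% of its exon bases with a noncoding gene, was at 3.63 and 4.20 CPM for the control, 1.65 and 2.58 CPM under CRISPR-DREAM, 2.45 and 2.97 CPM under SAM and 2.29 and 2.33 CPM under dCas9-VPR. Its log2 fold change of -0.78 (SE 0.19, limma adjusted p = 0.0114) ran from -1.03 to -0.52 as single libraries were left out, and the call was lost without control replicate 2 or CRISPR-DREAM replicate 1 (adjusted p up to 0.0864).

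The call of *HOXA13* depended on single libraries. *HOXA13*, the most 5′ member and a gene of the digits and hindgut, was at 14.5 and 11.5 CPM for the control, 10.5 and 7.30 CPM under CRISPR-DREAM, 10.6 and 8.93 CPM under SAM and 15.4 and 15.5 CPM under dCas9-VPR. Both CRISPR-DREAM values lay below the control values, and it fell by 0.54 on the log2 scale (SE 0.17, limma adjusted p = 0.0366). The replicates of these groups lay far apart, so the log2 fold change ran from -0.78 to -0.29 as libraries were left out, and the call was lost without control replicate 1, CRISPR-DREAM replicate 2 or either dCas9-VPR library (adjusted p up to 0.198). *HOXA3* did not pass, at 4.43 and 3.48 CPM for the control and 3.72 and 3.20 CPM under CRISPR-DREAM (limma adjusted p = 0.449).

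**Figure D3:**
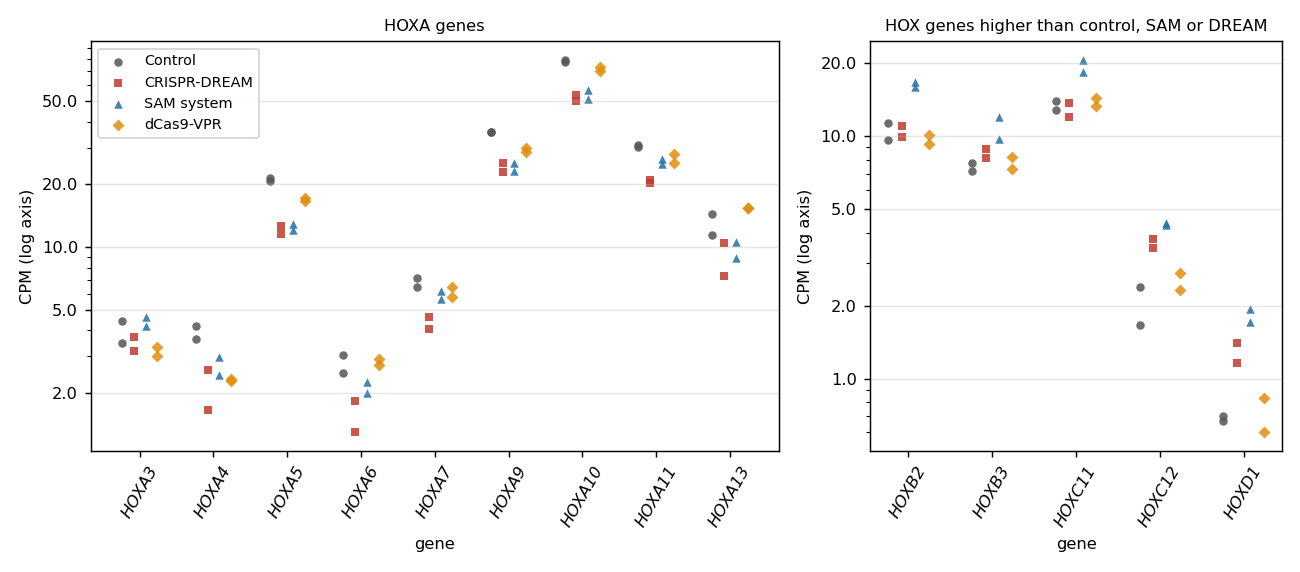
CPM in each library on log axes for 9 *HOXA* genes (left) and for the 5 HOX genes that rose with CRISPR-DREAM or the SAM system (right), with 1 point per library coloured by group. The CRISPR-DREAM points lie below the control points for every *HOXA* gene shown but *HOXA3*. The share of all genes that separate in this way was not computed. The 5 genes at the right were chosen because they were called higher, all 5 with the SAM system. That their SAM points lie above the control points follows from this choice.

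In *HOXB*, the 4 most 3′ genes did not pass, and 3 genes farther 5′ fell. *HOXB2*, which acts in hindbrain and facial nerve patterning, was at 11.4 and 9.62 CPM for the control, 9.90 and 11.0 CPM under CRISPR-DREAM, 16.0 and 16.7 CPM under SAM and 10.1 and 9.31 CPM under dCas9-VPR. Its CRISPR-DREAM and control values overlapped (limma adjusted p = 0.989). The most abundant HOX gene, *HOXB9*, was at 122 and 118 CPM for the control, 108 and 94.8 CPM under CRISPR-DREAM, 118 and 117 CPM under SAM and 122 and 129 CPM under dCas9-VPR. It fell by 0.24 on the log2 scale with CRISPR-DREAM (SE 0.07, limma adjusted p = 0.0225), and its groups did not overlap. *HOXB7* was at 22.6 and 27.6 CPM for the control, 17.4 and 19.4 CPM under CRISPR-DREAM, 22.6 and 27.2 CPM under SAM and 18.9 and 21.8 CPM under dCas9-VPR. It fell by 0.43 (SE 0.13, limma adjusted p = 0.0274). *HOXB13*, a gene of the prostate and tail, was at 25.6 and 26.6 CPM for the control, 26.2 and 30.1 CPM under CRISPR-DREAM, 28.9 and 29.4 CPM under SAM and 33.5 and 38.1 CPM under dCas9-VPR, with overlapping values in these groups (limma adjusted p = 0.425). The call of *HOXB9* was lost without either control library or CRISPR-DREAM replicate 2 (adjusted p up to 0.113), and that of *HOXB7* without control replicate 2 or CRISPR-DREAM replicate 1 (adjusted p up to 0.210).

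*HOXC* held genes that moved in opposite directions. *HOXC4*, the most 3′ member, was at 14.5 and 14.9 CPM for the control, 11.1 and 9.30 CPM under CRISPR-DREAM, 10.9 and 10.3 CPM under SAM and 11.7 and 12.6 CPM under dCas9-VPR and fell by 0.51 on the log2 scale with CRISPR-DREAM (SE 0.11, limma adjusted p = 0.00624). *HOXC10*, a gene of lumbar motor neurons, was at 19.4 and 22.5 CPM for the control, 15.8 and 13.4 CPM under CRISPR-DREAM, 16.7 and 17.6 CPM under SAM and 20.4 and 21.7 CPM under dCas9-VPR. Its fall with CRISPR-DREAM was of the same size, 0.51 (SE 0.11, limma adjusted p = 0.00568). *HOXC12*, near the 5′ end, was at 2.39 and 1.66 CPM for the control, 3.45 and 3.76 CPM under CRISPR-DREAM, 4.29 and 4.38 CPM under SAM and 2.32 and 2.73 CPM under dCas9-VPR, so that both CRISPR-DREAM libraries lay above both control libraries, and the log2 fold change was 0.71 (SE 0.17, limma adjusted p = 0.00997). Its neighbour *HOXC13*, a gene of hair and nails, was at 17.0 and 18.8 CPM for the control, 13.3 and 14.4 CPM under CRISPR-DREAM, 15.8 and 16.8 CPM under SAM and 15.4 and 18.4 CPM under dCas9-VPR and fell by 0.35 (SE 0.11, limma adjusted p = 0.0313). Without control replicate 2 the calls of *HOXC10*, *HOXC12* and *HOXC13* were lost (adjusted p up to 0.0603, 0.0871 and 0.189 over all libraries left out), and that of *HOXC13* also without CRISPR-DREAM replicate 1 or control replicate 1.

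In *HOXD*, the gene at the 5′ end fell and the gene at the 3′ end rose. *HOXD13*, the most 5′ member, was at 91.4 and 91.9 CPM for the control, 73.3 and 82.6 CPM under CRISPR-DREAM, 81.2 and 84.7 CPM under SAM and 94.5 and 100.0 CPM under dCas9-VPR. With CRISPR-DREAM it fell by 0.23 on the log2 scale (SE 0.07, limma adjusted p = 0.0254). *HOXD1*, the most 3′ member and a gene of sensory neurons, was at 0.702 and 0.671 CPM for the control, 1.16 and 1.40 CPM under CRISPR-DREAM, 1.94 and 1.71 CPM under SAM and 0.601 and 0.834 CPM under dCas9-VPR. All values were low, the CRISPR-DREAM libraries lay above the control libraries, and the log2 fold change was 0.58 (SE 0.18, limma adjusted p = 0.0368). This gene passed the filter only through the CRISPR-DREAM and SAM libraries, so its rise in them is not independent of the filter. *HOXD11*, which acts in the forearm and kidney, was at 17.0 and 15.0 CPM for the control, 13.1 and 9.80 CPM under CRISPR-DREAM, 13.8 and 14.0 CPM under SAM and 16.0 and 15.8 CPM under dCas9-VPR and fell by 0.48 with CRISPR-DREAM (SE 0.13, limma adjusted p = 0.0186). *HOXD10* was at 15.0 and 13.7 CPM for the control, 13.7 and 12.2 CPM under CRISPR-DREAM, 16.4 and 16.2 CPM under SAM and 14.3 and 14.6 CPM under dCas9-VPR and did not pass (limma adjusted p = 0.286). The call of *HOXD13* was lost without either control library or CRISPR-DREAM replicate 1 (adjusted p up to 0.135), that of *HOXD11* without control replicate 1 or CRISPR-DREAM replicate 2 (up to 0.111), and that of *HOXD1* without any 1 of the control, CRISPR-DREAM or SAM libraries (up to 0.140).

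With the SAM system, part of the *HOXA* cluster was again lower, and a few genes elsewhere were higher. The *HOXA* sum was 150 ± 2.09 CPM (SD, n = 2), 26.8% below the control. The other clusters lay nearer to their control sums, at 233 ± 5.47 CPM for *HOXB*, 90.7 ± 4.17 CPM for *HOXC* and 129 ± 1.60 CPM for *HOXD*. Of the 34 genes, 6 fell at an adjusted p below 0.05 (*HOXA5*, *HOXA9*, *HOXA10*, *HOXA11*, *HOXC4* and *HOXC9*), where 8.89% of all genes fell. Another 5 rose (*HOXB2*, *HOXB3*, *HOXC11*, *HOXC12* and *HOXD1*), where 35.7% of all genes rose. Of these, *HOXD1* passed the filter only through the CRISPR-DREAM and SAM libraries. At a fold change above 2, limma called 0 HOX genes and 4.34% of all genes, with 15 HOX genes at an unadjusted p below 0.05. These 15 were 44.1% of the HOX genes tested, where 35.7% of all genes rose and 8.89% fell at the stricter adjusted p. *HOXA5* (log2 fold change -0.73), *HOXA9* (-0.56) and *HOXA10* (-0.53) fell in every fit that left out a library, as *HOXB2*, *HOXC11*, *HOXC12* and *HOXD1* rose in every one. The number of HOX genes that fell became 10 without CRISPR-DREAM replicate 1 or without CRISPR-DREAM replicate 2, which enter the estimate of the spread. The call of *HOXA11* was lost without any 1 of the control or SAM libraries (adjusted p up to 0.161), and that of *HOXC4* without SAM replicate 2 (up to 0.0510). Cell markers moved here too, with 7 of 10 HEK293 markers higher and 1 lower, and 3 of 5 tested markers of other cell types higher and 0 lower, a part that was not tested. Of the 3, *PECAM1* passed the filter only through the SAM libraries.

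The direction of the SAM comparison over all genes depended on scaling. The median log2 fold change of all genes tested was 0.16 with the deposited scaling and -0.01 after rescaling by the median of ratios, and the split of all genes at an adjusted p below 0.05 moved from 5398 higher and 1345 lower to 2717 higher and 3198 lower. The HOX median moved from -0.02 to -0.20, the HOX genes called moved from 5 higher and 6 lower to 4 higher and 12 lower, and *HOXA* held 6 of the 12. The *HOXA* median with the SAM system was -0.35 with the deposited scaling and -0.51 after rescaling. Relative to the median of all genes, *HOXA5* was at -0.89, *HOXC9* at -0.74, *HOXA9* at -0.72 and *HOXA10* at -0.69 on the log2 scale. On the same basis *HOXD1* was at 0.81, *HOXC12* at 0.79, *HOXB2* at 0.46, *HOXC11* at 0.36 and *HOXB3* at 0.34. For CRISPR-DREAM relative to control, rescaling changed the split of all genes from 2837 higher and 1399 lower to 2072 higher and 2171 lower, and left 20 HOX genes lower and 1 higher.

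The genes that rose with the SAM system were at the 3′ ends of *HOXB* and *HOXD* and in the 5′ part of *HOXC*. *HOXB2* reached 16.0 and 16.7 CPM, above the 9.62 and 11.4 CPM of the control, and the log2 fold change was 0.62 (SE 0.11, limma adjusted p = 0.00146). *HOXB3* was at 7.76 and 7.19 CPM for the control, 8.90 and 8.10 CPM under CRISPR-DREAM, 9.72 and 12.04 CPM under SAM and 7.32 and 8.19 CPM under dCas9-VPR, and its log2 fold change was 0.51 (SE 0.13, limma adjusted p = 0.00875) whose call was lost without control replicate 2 or SAM replicate 2 (adjusted p up to 0.0862) and after median-of-ratios scaling. *HOXC11* was at 12.8 and 14.0 CPM for the control, 12.02 and 13.7 CPM under CRISPR-DREAM, 18.4 and 20.6 CPM under SAM and 13.3 and 14.3 CPM under dCas9-VPR, and the SAM libraries stood above all others, with a log2 fold change relative to control of 0.52 (SE 0.11, limma adjusted p = 0.00294).

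*HOXC12* and *HOXD1* had the largest log2 differences among the tested HOX genes. The ratio of mean CPM, SAM to control, was 2.14 for *HOXC12* and 2.66 for *HOXD1*, while both stayed under the 2-fold limit on the log2(CPM + 0.5) scale used for the test. In the SAM libraries the log2 fold change relative to control was 0.95 for *HOXC12* (SE 0.17, limma adjusted p = 0.00134) and 0.97 for *HOXD1* (SE 0.18, limma adjusted p = 0.00208). Both are low genes, and the log2(CPM + 0.5) scale understates the change of low genes; with 0.1 in place of 0.5 these were the 2 HOX genes past a fold change of 2 with the SAM system. *HOXC9*, a gene of thoracic motor neurons, was at 9.89 and 7.92 CPM for the control, 5.13 and 6.25 CPM under CRISPR-DREAM, 5.72 and 5.86 CPM under SAM and 8.47 and 8.95 CPM under dCas9-VPR, and fell by 0.57 with the SAM system (SE 0.14, limma adjusted p = 0.00674), a call lost without control replicate 1 (adjusted p = 0.0581).

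With dCas9-VPR, few HOX genes differed from the control. The *HOXA* sum was 181 ± 5.45 CPM (SD, n = 2), 11.9% below the control, with 233 ± 12.2 CPM for *HOXB*, 91.3 ± 6.12 CPM for *HOXC* and 140.4 ± 4.04 CPM for *HOXD*. *HOXA4*, *HOXA5* and *HOXA9* fell (3 of 34 genes, where 6.68% of all genes fell) and *HOXB13* rose (1 of 34, where 11.0% of all genes rose). At a fold change above 2, limma called 0 HOX genes and 1.10% of all genes, with 9 HOX genes at an unadjusted p below 0.05. *HOXB13* was at 33.5 and 38.1 CPM, above all 6 other libraries, and its log2 fold change was 0.44 (SE 0.09, limma adjusted p = 0.00983). The count of 3 became 0 without either control library or either dCas9-VPR library, and the count of 1 became 0 without control replicate 2 or dCas9-VPR replicate 2. After median-of-ratios scaling all genes split into 1227 higher and 1351 lower in place of 1656 and 1010, with 1 HOX gene higher and 4 lower. The HOX median was -0.03 and the all-gene median 0.06 with the deposited scaling.

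**Figure D4:**
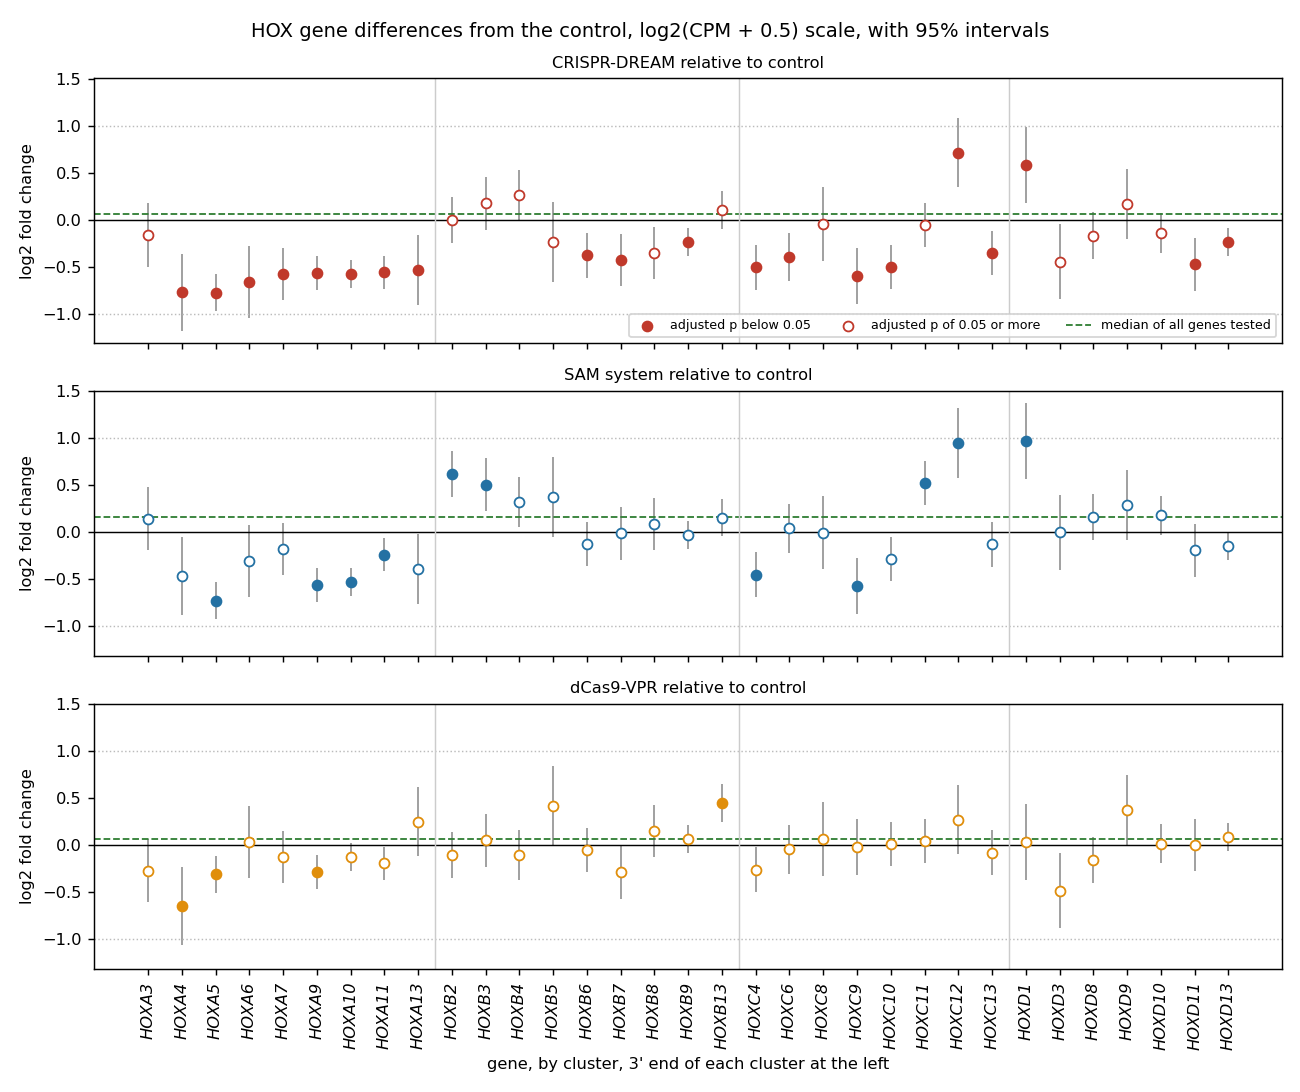
Log2 fold change relative to control of 33 tested HOX genes on the log2(CPM + 0.5) scale, with 95% intervals from limma, in panels for CRISPR-DREAM, SAM and dCas9-VPR. Filled points have an adjusted p below 0.05, the dashed line is the median of all genes tested (0.06, 0.16 and 0.06) and the dotted lines mark a 2-fold change; the 3 comparisons share the control libraries, and 8 of the 9 *HOXA* points are filled for CRISPR-DREAM.

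These 3 comparisons share the control libraries, so like directions among them are not independent, and the activators were compared with each other directly. With the deposited scaling, all 34 HOX genes had a log2 fold change below 0 (CRISPR-DREAM relative to SAM), beside 10253 of 15122 genes tested. After median-of-ratios scaling 25 of 34 HOX genes were below 0, and the share of all genes was not computed. The median was -0.30 over HOX genes and -0.09 over all genes with the deposited scaling. It was -0.20 and 0.01 after rescaling. In the main fit *HOXA11*, *HOXB2*, *HOXB8*, *HOXC6* and *HOXC11* passed as lower (5 of 34, where 9.14% of all genes were lower), and 0 were higher by limma (1.59% of all genes), with 16 HOX genes at an unadjusted p below 0.05. *HOXB2* differed by -0.63 on the log2 scale (SE 0.11, limma adjusted p = 0.0109) and *HOXC11* by -0.58 (SE 0.11, limma adjusted p = 0.0116). For *HOXA5*, *HOXA9* and *HOXA10* the differences were -0.05, -0.01 and -0.05 on the log2 scale, with 95% intervals of -0.25 to 0.15, -0.19 to 0.17 and -0.20 to 0.10. The count of 5 became 0 without SAM replicate 2, 1 without SAM replicate 1, 3 without CRISPR-DREAM replicate 2 and 2 without either dCas9-VPR library. After median-of-ratios scaling 2 HOX genes were lower, with all genes split into 802 higher and 535 lower in place of 241 and 1382. With the replicate number as a block, more HOX genes were lower. Those counts stand in the last paragraph for every comparison, as the labels do not establish a pairing. At a fold change above 2, 0 HOX genes and 0.721% of all genes passed.

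Relative to dCas9-VPR, 15 of 34 HOX genes were lower with CRISPR-DREAM, where 5.21% of all genes were lower, and 0 were higher by limma, where 7.90% of all genes were. They were 7 of 10 in *HOXA*, 4 of 9 in *HOXB*, 2 of 8 in *HOXC* and 2 of 7 in *HOXD*, and 22 HOX genes had an unadjusted p below 0.05. The HOX median was -0.28 and the all-gene median 0.02. *HOXA13* showed the widest gap, -0.79 on the log2 scale (SE 0.17, limma adjusted p = 0.0147), and *HOXA10* differed by -0.45 (SE 0.07, limma adjusted p = 0.00307). The count of 15 depended on single libraries, at 9 without either CRISPR-DREAM library, at 10 without either SAM library or 11 to 12 without a control library, and at 1 without either dCas9-VPR library, where *HOXA10* remained. After median-of-ratios scaling 15 HOX genes were again lower, with all genes split into 1045 higher and 1033 lower in place of 1195 and 788. At a fold change above 2, 0 HOX genes and 0.734% of all genes passed.

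Between the SAM system and dCas9-VPR, HOX genes differed in both directions. With the SAM system 7 were higher (*HOXB2*, *HOXB3*, *HOXB4*, *HOXC11*, *HOXC12*, *HOXD1* and *HOXD8*), where 23.6% of all genes were higher. Another 7 were lower (*HOXA5*, *HOXA9*, *HOXA10*, *HOXA13*, *HOXB13*, *HOXC9* and *HOXD13*), where 6.32% of all genes were lower. Among the higher genes, *HOXD1* was below 1 CPM in both dCas9-VPR libraries and passed the filter only through the other activators. *HOXD1* differed by 0.94 on the log2 scale (SE 0.18, limma adjusted p = 0.00398), *HOXB2* by 0.73 (SE 0.11, limma adjusted p = 0.00122) and *HOXA10* by -0.40 (SE 0.07, limma adjusted p = 0.00198), and these 3 kept their call without any single library. The 7 higher became 2 without SAM replicate 2 or without dCas9-VPR replicate 1. The 7 lower became 4 without SAM replicate 1, 2 without SAM replicate 2, 3 without dCas9-VPR replicate 1 and 1 without dCas9-VPR replicate 2. After median-of-ratios scaling 4 HOX genes were higher and 10 lower, with all genes split into 2035 higher and 2426 lower in place of 3567 and 955. At a fold change above 2, limma called 0 HOX genes and 2.31% of all genes, with 19 HOX genes at an unadjusted p below 0.05.

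The DNA-binding partners of HOX proteins moved in both directions. All 9 TALE genes on the list were tested, and their counts and those of the lists below stand beside the same shares of all genes given above. Relative to control, 6 fell and 2 rose under CRISPR-DREAM, 3 fell and 2 rose under SAM, and 1 fell and 2 rose under dCas9-VPR. Of all genes tested, 9.25% fell and 18.8% rose under CRISPR-DREAM, 8.89% and 35.7% under SAM, and 6.68% and 11.0% under dCas9-VPR. *PBX4* had 3.19 and 3.52 CPM in the control libraries against 1.52 and 1.23 CPM under CRISPR-DREAM, so that its log2 fold change was -1.04 (SE 0.16, limma adjusted p = 0.00108). It fell by 0.86 with the SAM system and by 0.78 with dCas9-VPR, and with CRISPR-DREAM it was the 1 gene of the list past a 2-fold change. *MEIS1*, which works with *HOXA9* in blood progenitors, had 8.29 and 9.39 CPM in the control libraries against 5.41 and 4.85 CPM under CRISPR-DREAM (log2 fold change -0.73, limma adjusted p = 0.00119). *MEIS3* rose from 24.9 and 25.6 CPM to 43.1 and 43.9 CPM under CRISPR-DREAM and 38.7 and 39.0 CPM under SAM. *PBX2* rose with all 3 activators, by 0.44, 0.61 and 0.26 on the log2 scale.

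Chromatin regulators of the clusters moved in both directions. Of 21 Polycomb genes, 4 rose and 4 fell under CRISPR-DREAM, 9 rose and 4 fell under SAM, and 2 rose and 1 fell under dCas9-VPR, with medians of 0.07, 0.18 and 0.07 on the log2 scale. Of all genes tested, 18.8% rose and 9.25% fell under CRISPR-DREAM, 35.7% and 8.89% under SAM, and 11.0% and 6.68% under dCas9-VPR. The Polycomb rises under CRISPR-DREAM and both counts under dCas9-VPR were near those shares. *EZH2*, the enzyme that methylates lysine 27 of histone H3, was at 80.3 and 80.7 CPM for the control, 55.5 and 49.8 CPM under CRISPR-DREAM, 57.1 and 57.0 CPM under SAM and 67.3 and 62.3 CPM under dCas9-VPR. It fell in each of these groups, by 0.61, 0.49 and 0.31 on the log2 scale. *RNF2*, a subunit of the other Polycomb complex, rose from 57.7 and 60.9 CPM to 76.2 and 68.4 CPM under CRISPR-DREAM and 84.9 and 87.6 CPM under SAM. *SUZ12*, a partner of *EZH2*, rose from 64.8 and 64.1 CPM with CRISPR-DREAM (77.6 and 71.8 CPM) and the SAM system (85.4 and 83.6 CPM). Of 10 MLL complex genes and H3K27 demethylases, 3 rose under CRISPR-DREAM, 4 under SAM and 1 under dCas9-VPR, and 0 fell, with *MEN1* (menin) among those that rose in each. For a list of 10 genes these counts were near the shares of all genes. Of 6 CDX and retinoic acid receptor genes, 4 were in the files. *CDX2*, a regulator of posterior HOX genes, was at 26.3 to 31.5 CPM in all libraries and did not pass in any comparison with the control. *RARA* and *RARG* rose with CRISPR-DREAM and the SAM system, while *RARB* fell with CRISPR-DREAM and dCas9-VPR.

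Other genes inside the clusters, mostly noncoding, also differed between the groups. Of 26 other genes found inside the clusters 17 were tested. Under CRISPR-DREAM 4 fell and 0 rose, under SAM 1 fell and 6 rose, and under dCas9-VPR 1 fell and 0 rose. The shares of all genes tested were 9.25% and 18.8%, 8.89% and 35.7%, and 6.68% and 11.0%, in the same order. Both counts under SAM and the fall under dCas9-VPR were near these shares. *HOTAIRM1*, a noncoding gene of the *HOXA* cluster, was at 28.6 and 36.1 CPM for the control, 17.0 and 21.2 CPM under CRISPR-DREAM and 19.1 and 20.8 CPM under SAM, so both groups lay below the control and both fell (log2 fold changes -0.74 and -0.67). *HOXA-AS2* fell from 5.15 and 5.34 CPM with CRISPR-DREAM (2.77 and 3.22 CPM) and dCas9-VPR (3.67 and 3.63 CPM). *HOTAIR*, which lies between *HOXC11* and *HOXC12*, was at 5.20 and 5.41 CPM for the control and 7.09 and 8.70 CPM under SAM, where it rose by a log2 fold change of 0.53. *HOXC13-AS* (2.06 and 2.47 CPM to 4.27 and 4.33 CPM) and *HAGLR*, antisense to *HOXD1* (11.0 and 11.3 CPM to 15.6 and 18.3 CPM), rose with the SAM system as well. Exons of *HAGLR* overlap 7.69% of the exon bases of *HOXD1*, and its part in the *HOXD1* value was not tested.

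Genes flanking the clusters included some that rose and some that fell. Of 11 tested, 3 rose and 1 fell under CRISPR-DREAM, 6 rose and 0 fell under SAM, and 2 rose and 1 fell under dCas9-VPR. The shares of all genes tested were 18.8% and 9.25%, 35.7% and 8.89%, and 11.0% and 6.68%, in the same order. The falls were near these shares. The rises lay above them by few genes, and with 11 tested are not read as a result about flanking genes. *SKAP2*, beyond the 3′ end of the *HOXA* cluster, fell from 52.9 and 53.4 CPM in the control to 37.9 and 37.8 CPM with CRISPR-DREAM (log2 fold change -0.48). *HIBADH*, farther beyond the *HOXA13* end, rose from 53.0 and 52.3 CPM in the control to 61.3 and 60.2 CPM with CRISPR-DREAM (log2 fold change 0.20). *SKAP1*, which flanks *HOXB*, was at 0.925 and 0.782 CPM for the control, 0.443 and 1.02 CPM under CRISPR-DREAM, 2.26 and 3.53 CPM under SAM and 0.372 and 0.545 CPM under dCas9-VPR. It rose in the SAM libraries by a log2 fold change of 1.30 (SE 0.26, limma adjusted p = 0.00292), the 1 flanking gene past a 2-fold change relative to control. Outside the SAM libraries *SKAP1* reached 1 CPM only in CRISPR-DREAM replicate 2, so its entry in the test depended on the group where it was high.

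Markers of other cell types summed to 9.22 and 11.0 CPM in the control, 6.58 to 9.34 CPM under CRISPR-DREAM, 11.3 to 14.4 CPM under SAM and 7.35 to 8.92 CPM under dCas9-VPR. Of 5 tested, 1 rose and 1 fell under CRISPR-DREAM, 3 rose under SAM and 1 fell under dCas9-VPR. *PECAM1*, an endothelial marker, rose from 0.0319 and 0.130 CPM to 0.569 and 0.456 CPM under CRISPR-DREAM and to 1.03 and 1.17 CPM under SAM. It reached 1 CPM only in the SAM libraries, so it entered the test through the group where it was highest. None of the 6 markers was at 0 in all libraries of a group, and *COL3A1*, a fibroblast collagen, fell from 3.99 and 5.18 CPM to 1.96 and 2.35 CPM under CRISPR-DREAM (log2 fold change -0.93, limma adjusted p = 0.00289). Of the 10 HEK293 markers, 5 rose and 1 fell under CRISPR-DREAM, 7 rose and 1 fell under SAM, and 3 rose and 0 fell under dCas9-VPR. For both marker lists, the shares of all genes tested were 18.8% and 9.25%, 35.7% and 8.89%, and 11.0% and 6.68%, in the same order. *KRT8*, a keratin, rose from 50.2 and 45.2 CPM to 113 and 107 CPM under CRISPR-DREAM, 105 and 95.1 CPM under SAM and 92.1 and 78.5 CPM under dCas9-VPR. *VIM* (vimentin), the most abundant of them, fell from 396 and 344 CPM to 318 and 267 CPM under CRISPR-DREAM and 330.3 and 276 CPM under SAM. The part of these markers in the HOX values was not tested.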

How the data were processed

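HEK293T RNA was sequenced in 4 groups of 2 libraries. Reads were aligned by the authors with STAR 2.7.3a to hg38 and counted on Gencode 36, and the deposited values are CPM, with an offset of 1e-04 on every value. The study's methods also name DESeq2 3.5 for its own comparisons, whose results were not used. Between 66.5% and 73.0% of low CPM values lay within 0.05 of a whole read, so reads were not recovered and no count model was run.

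The 15122 genes that reached 1 CPM in 2 or more libraries entered a test by limma 3.58.1 (R 4.3.3, with its trend and robust options) on log2(CPM + 0.5), with all 8 libraries, 1 coefficient per group and Benjamini-Hochberg adjustment over all genes tested. The code was tested on simulated data. Exon lengths and overlaps came from Gencode 44, in which 32 of the 37 genes had the same start and end as in the files, and promoter sequence from RefSeq. Library values were given for the 3 highest members of each cluster by CPM per kb and for its most 5′ and 3′ tested members, except 1 that is counted in all totals but not reported here by name; other members given by library were chosen after their values were seen. The members and gene lists were chosen with earlier results of these data known. Alternatives were other pseudocounts, filters, scaling, thresholds, limma options and libraries, and a replicate block. The labels name polyA RNA, whereas the study's methods name a stranded total RNA kit. Sequences of HOX proteins were not used here.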

Additional observations from a re-analysis of the deposited data

How the results depend on the processing

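The count of HOX genes past a 2-fold change was 0 in all 6 comparisons. Values are listed below in the order CRISPR-DREAM, SAM and dCas9-VPR relative to control, CRISPR-DREAM relative to SAM, CRISPR-DREAM relative to dCas9-VPR, and SAM relative to dCas9-VPR. With no fold limit the counts were 21, 11, 4, 5, 15 and 14, and at a fold change above 1.5 they were 5, 4, 1, 1, 3 and 4. A pseudocount of 0.1 gave 2 for SAM relative to control and 1 for SAM relative to dCas9-VPR. With 1 library left out the count stayed between 0 and 1 in each comparison, where *HOXA4*, *HOXA13*, *HOXC12* or *HOXD1* crossed the limit.

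Counts by direction with no fold limit were added after seeing the data. With CRISPR-DREAM relative to control, the 2 higher became 0 with a filter at 5 CPM and 1 with median-of-ratios scaling or only the 4 libraries compared, and the 19 lower became 12 with only those 4. With the SAM system the 6 lower became 12 with median-of-ratios scaling. With dCas9-VPR the 3 lower became 1 without limma's trend and robust options. For CRISPR-DREAM relative to SAM the 5 lower became 2 with median-of-ratios scaling or only the 4 libraries, and 3 without trend and robust options. Relative to dCas9-VPR the 15 lower with CRISPR-DREAM became 9 with only the 4 libraries or without those options, and the 0 higher became 2 without those options. For SAM relative to dCas9-VPR the 7 higher became 4 with median-of-ratios scaling. The cause was not tested.

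With 1 library left out, where a lone sample is assumed to vary like the other groups, the higher and lower counts ran from 0 to 2 and 9 to 19, 4 to 5 and 4 to 10, 0 to 1 and 0 to 4, 0 to 0 and 0 to 5, 0 to 0 and 1 to 12, and 2 to 8 and 1 to 8, in the same order of comparisons. No fold change of a named gene that passed the test changed sign under any alternative.

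Replicate numbers are shared by the groups, but with 2 numbers the labels do not establish a pairing. Differences between the replicates correlated at 0.133 to 0.326 between groups over 15122 genes. With the replicate number as a block, 20 HOX genes were lower and 2 higher with CRISPR-DREAM relative to control, 10 and 6 with SAM, and 8 and 1 with dCas9-VPR. Under the block 16 were lower and 0 higher with CRISPR-DREAM relative to SAM, 18 and 3 relative to dCas9-VPR, and 8 lower and 11 higher with SAM relative to dCas9-VPR. Depth limits *HOXD4*, which in 1 library lay below the level of 3 reads.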
